A study of Mus musculus with 9 samples.

Results

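The genes examined here are 35 mouse genes of myeloid differentiation, chosen by symbol: transcription factors of the granulocyte and monocyte lineages, granule enzymes and antimicrobial proteins, cytokine receptors, surface and lysosomal proteins, and subunits of the phagocyte NADPH oxidase. Of these, 33 had a named probe set on the array, 1 each, among 19572 probe sets with a gene symbol, and Ly6g and Cd68 were not analysed here. RNA came from C1498, a cell line derived from a mouse acute myeloid leukaemia. Cells labelled ZEB C and ZEB D carried a lentiviral short hairpin RNA (shRNA) against Zeb1, by hairpin sequence C or D, and cells labelled SCR carried a negative control construct. All groups shared the lentiviral infection, the GFP marker and the isolation of GFP+ cells 2 weeks after infection, and no uninfected cells are among the 9 arrays (3 a group). All material came from a single line. Nothing in the labels ties the arrays of a group to separate infections or cultures, so the p-values measure only the spread between these arrays, which may be technical.

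Myeloid cells mature from progenitors under a small set of transcription factors. C/EBP alpha and PU.1 (Cebpa and Spi1) open the programme, Gfi1 and C/EBP epsilon favour granulocytes, and Irf8, Klf4 and the Egr factors favour monocytes. Maturing granulocytes fill primary granules with myeloperoxidase and serine proteases, then secondary granules with lactoferrin and other antimicrobial proteins, and phagocytes assemble the NADPH oxidase that makes superoxide. Zeb1, the target of the hairpins, is a zinc-finger factor that binds E-box sequences and is best known as a repressor of epithelial genes.

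The check of the target came first. Zeb1 had log2 signals of 10.41, 10.01 and 10.34 on the arrays labelled ZEB C, 9.56, 9.26 and 9.40 in ZEB D, and 10.52, 10.29 and 10.56 in SCR. The ZEB D arrays lay below every SCR array, at 48.3% of the SCR level (log2 fold change -1.05 ± 0.16, SE; limma adjusted p = 0.0263), while the ZEB C arrays overlapped SCR, at 86.9% of its level (-0.20 ± 0.16; limma adjusted p = 0.895). The ZEB D call was lost without SCR replicate 7, 8 or 9 or ZEB D replicate 14 or 15, with limma adjusted p between 0.0502 and 0.157. It was also lost with the trended variance prior (0.0904) and with only the 6 compared arrays (0.0626). The ZEB C label is therefore used below as a name of the arrays, and a difference from SCR in those arrays is not tied to a measured loss of Zeb1. Arrays within a group also differed along a shared axis: the leading principal component of the deviations from group means held 57.9% of their variance, with scores above 0 for SCR 8, ZEB C 12, ZEB D 14 and ZEB D 15 (0.36 to 1) and below 0 for the other arrays (-0.95 to -0.35). Deviations sum to 0 within each group, so scores of both signs in every group are built in. The genes described below entered this component, so their match with its scores is no separate support.

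Most of the myeloid differentiation genes gave low signals in all groups, and their differences from SCR were small, as for most of the array. Log2 fold changes lay within 0.5 of 0 for 84.8% of the 33 genes in each comparison with SCR. Of all probe sets, 87.9% did so in ZEB C and 82.2% in ZEB D. Of the 33 measured genes, 24 had a mean at or below the median probe set (log2 7.10), and 12, or 36.4%, lay in the lowest 25% of all probe sets. On those 24 probe sets every array read between 4.16 and 7.40, and their log2 fold changes ran from -0.17 to 0.31 in ZEB C against SCR and from -0.41 to 0.41 in ZEB D against SCR. A probe set's signal depends on its probes, so these values place each signal against the range of the array and do not rank transcripts. As each array measured RNA from many cells together, a lower signal from fewer expressing cells and from less RNA per cell cannot be told apart. The 9 genes above the median were Cyba, Lgmn, Egr2, Egr1, Aqp9, Ncf4, Id2, Mpo and Cybb, and each gene with a log2 fold change of 1 or more in size in any comparison was among them.

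**Figure D1:**
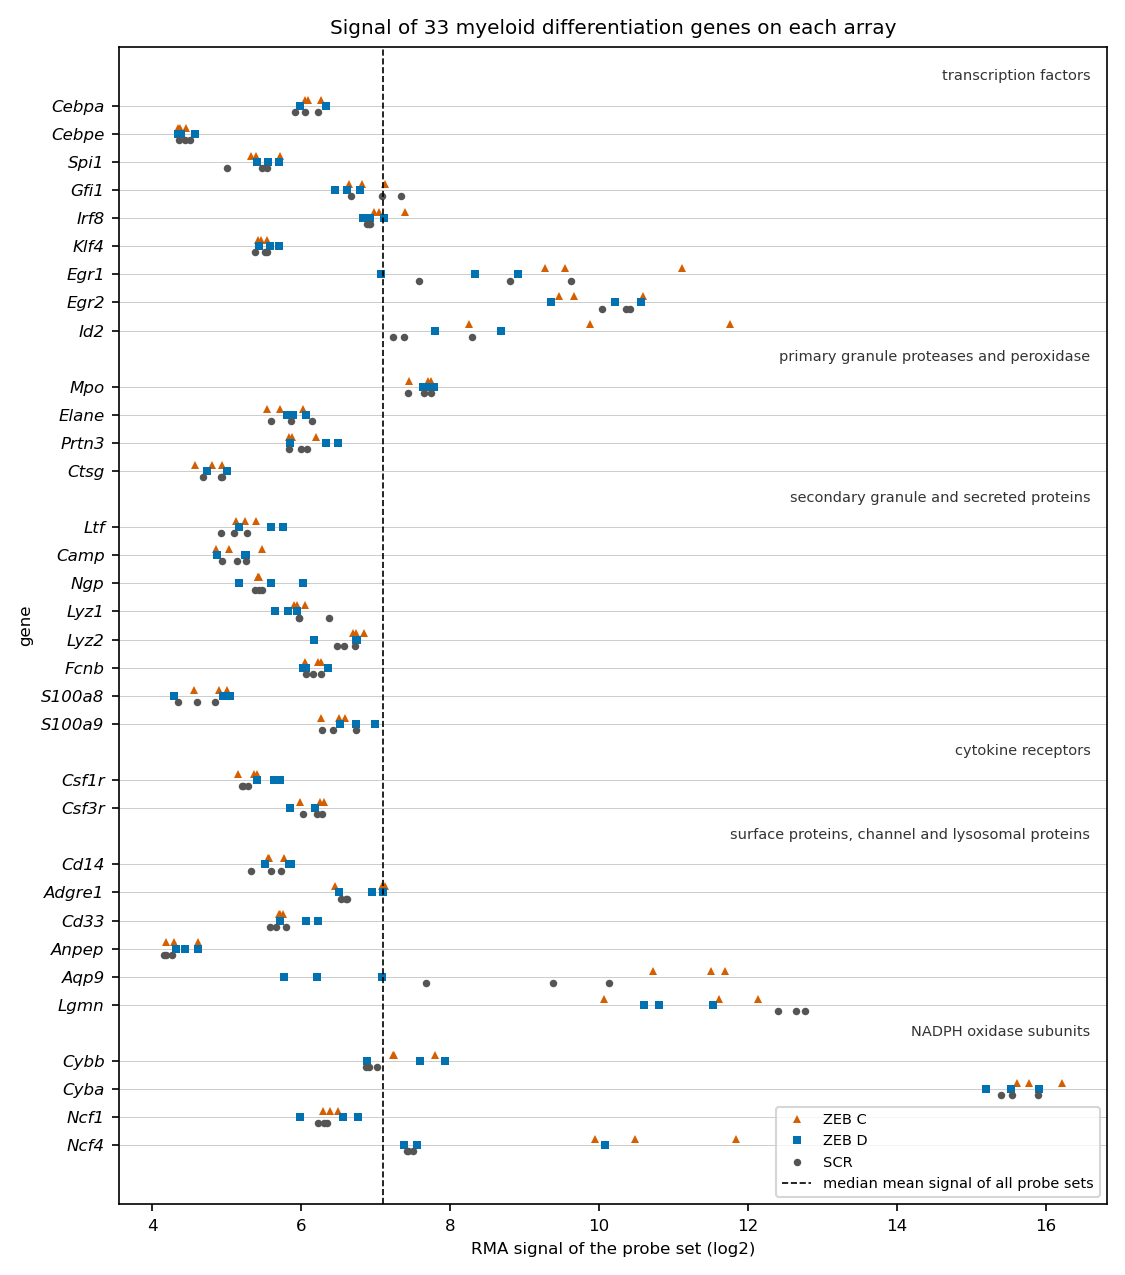
RMA signal (log2, x axis) of the 33 measured genes on each of the 9 arrays, grouped by role, with ZEB C as triangles, ZEB D as squares and SCR as circles, and the median of all probe sets (7.10) as a dashed line. Most genes sit left of the line with the groups mixed, while Aqp9, Ncf4, Lgmn, Id2 and Egr1 spread over several log2 units.

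A gene was called where limma's adjusted p, over all 19572 probe sets, was under 0.05. In ZEB C against SCR, 0 of the 33 genes were called, where 0.945% of all probe sets were. In ZEB D against SCR, 0 were called, where 0.843% of all probe sets were. In ZEB D against ZEB C, 1 gene, Aqp9, was called, where 0.848% of all probe sets were. At an adjusted p under 0.10, 1 gene was called in ZEB C against SCR (Ncf4, with 1.61% of all probe sets), 1 in ZEB D against SCR (Aqp9, with 1.53% of all) and 1 in ZEB D against ZEB C (Aqp9, with 1.6% of all). The arrays of both groups were fully separated for 5 of 33 genes in ZEB C against SCR (15.2%, with 14.2% of all probe sets), for 5 in ZEB D against SCR (15.2%, with 17% of all) and for 3 in ZEB D against ZEB C (9.09%, with 15.2% of all), shares near those of the whole array. Separated arrays with a log2 fold change of at least 1 in size were seen for 3 of 33 genes in ZEB C against SCR (2.61% of all probe sets), 2 in ZEB D against SCR (2.47% of all) and 2 in ZEB D against ZEB C (2.46% of all). These few genes are a larger share of the 33 than of all probe sets, a difference that was not tested. The median log2 fold change of the 33 genes was 0.07 in ZEB C against SCR and 0.09 in ZEB D against SCR, beside 0.00 and 0.04 for all probe sets. The comparisons with SCR share the SCR arrays and are given side by side only.

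Aqp9, an aquaglyceroporin that passes water, glycerol and other small solutes and is found in neutrophils and hepatocytes, had the largest difference between the hairpins among the 33 genes. Its log2 signal was 7.08, 5.77 and 6.21 in ZEB D, against 11.50, 10.73 and 11.69 in ZEB C, and SCR lay between them at 10.14, 7.68 and 9.38. No array of any group overlapped another group. Aqp9 was thus 31.0-fold lower in ZEB D than in ZEB C, a log2 fold change of -4.95 ± 0.59 (SE; limma adjusted p = 0.00729), and the call held whichever array was left out. Against SCR, ZEB C was higher by 2.24 ± 0.59 (limma adjusted p = 0.166) and ZEB D had a log2 fold change of -2.71 ± 0.59 (limma adjusted p = 0.0887), and neither passed the test. SCR itself spread over 2.46 log2 units (mean 9.07 ± 1.26, SD, n = 3), with SCR 8 the lowest, and without SCR replicate 8 the ZEB C difference was 1.55 (limma adjusted p = 0.289) and the ZEB D difference was -3.41 (0.0267). The ZEB D difference was not called without any other array (0.0705 to 0.355). The exact two-sided permutation p was 0.10 in each of the 3 comparisons, the smallest that 3 arrays against 3 allow. The median of the 40 nearest measured neighbours of Aqp9 on chromosome 9 above the median signal had log2 fold changes of -0.24 in ZEB C and -0.34 in ZEB D against SCR.

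Ncf4, the p40phox subunit that helps the oxidase assemble on phagosome membranes, was high on every ZEB C array and on 1 ZEB D array. Its log2 signal was 9.95, 10.49 and 11.84 in ZEB C, 7.38, 10.08 and 7.55 in ZEB D, and 7.43, 7.5 and 7.42 in SCR. The 3 SCR arrays lay within 0.08 of each other, all ZEB C arrays lay above them, and ZEB D 13 and ZEB D 15 stayed at the SCR level while ZEB D 14 reached the range of ZEB C. In ZEB C against SCR the log2 fold change was 3.31 ± 0.70 (SE), or 9.92-fold, and missed the threshold (limma adjusted p = 0.0754). The same difference was called without ZEB D replicate 14 (limma adjusted p = 0.018), an array that enters only the estimate of spread, and not without any other array (0.0606 to 0.262). ZEB D against SCR gave 0.89 ± 0.70 (limma adjusted p = 0.61), or 0.01 without ZEB D replicate 14, and ZEB D against ZEB C gave -2.42 ± 0.70 (limma adjusted p = 0.199), which without ZEB D replicate 14 became -3.30 (limma adjusted p = 0.0277). ZEB C 12 and ZEB D 14, the highest arrays of their groups for Ncf4, have principal component scores above 0, as do ZEB D 15 and SCR 8, which stayed at the SCR level.

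The other oxidase subunits had smaller differences, and their difference from Ncf4 was not tested. Cyba, p22phox, the membrane partner that stabilises the catalytic subunit, read 15.62, 15.77 and 16.22 in ZEB C, 15.20, 15.91 and 15.53 in ZEB D, and 15.40, 15.90 and 15.55 in SCR, with all groups overlapping. Cybb, gp91phox, the catalytic subunit, read 7.25, 7.23 and 7.80 in ZEB C, 6.89, 7.93 and 7.60 in ZEB D, and 7.02, 6.87 and 6.91 in SCR. All ZEB C arrays of Cybb lay above all SCR arrays, while ZEB D overlapped SCR. Cybb and Cyba, like Ncf4, were highest in their groups on ZEB C 12 and ZEB D 14. For Cybb the log2 fold changes were 0.49 ± 0.27 (SE) in ZEB C and 0.54 ± 0.27 in ZEB D, and neither passed (limma adjusted p of 0.716 and 0.418). Ncf1, p47phox, the cytosolic organiser, ranged from 5.99 to 6.76 over all arrays, with log2 fold changes of 0.09 in ZEB C and 0.14 in ZEB D. The 5 further oxidase genes measured were Rac1, Rac2, Rap1a, Cybc1 and the proton channel Hvcn1. Of these, 0 were called in any comparison, where 0.843% to 0.945% of all probe sets were. Their medians were 0.16 in ZEB C and 0.12 in ZEB D against SCR.

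Lgmn, legumain, an asparaginyl endopeptidase of lysosomes, was lower than SCR on every array of both hairpins. Its log2 signal was 11.61, 12.13 and 10.07 in ZEB C, 10.80, 11.53 and 10.61 in ZEB D, and 12.77, 12.40 and 12.65 in SCR. The SCR arrays lay close together, and the hairpin groups overlapped each other. The log2 fold changes against SCR were -1.34 ± 0.47 (SE) in ZEB C and -1.63 ± 0.47 in ZEB D, and neither passed the test (limma adjusted p of 0.367 and 0.185). Without ZEB C replicate 12, the lowest Lgmn array, the ZEB C value shrank to -0.74 (limma adjusted p = 0.537), and the ZEB D difference, -1.63, was called (0.0304). It was not called without any other array (0.162 to 0.528). ZEB D against ZEB C was -0.29 ± 0.47 (limma adjusted p = 0.851). The 40 nearest neighbours of Lgmn on chromosome 12 had medians of 0.05 in ZEB C and -0.16 in ZEB D.

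**Figure D2:**
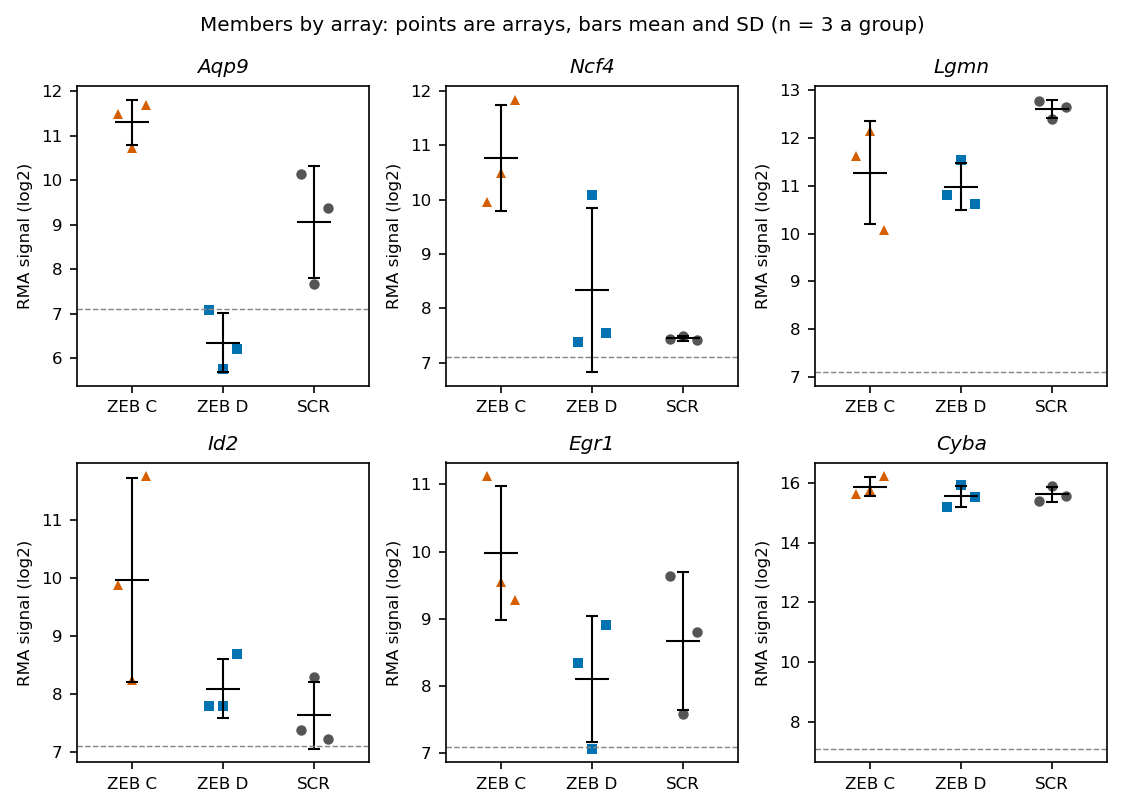
RMA signal (log2, y axis) of Aqp9, Ncf4, Lgmn, Id2, Egr1 and Cyba in ZEB C, ZEB D and SCR, with a point per array, black bars for the mean and SD (n = 3), and a dashed line at the median of all probe sets. Aqp9 is high in ZEB C and low in ZEB D with SCR between, Ncf4 is high in ZEB C and on 1 ZEB D array, Lgmn is lower with both hairpins, and Cyba is level.

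Among the transcription factors, Cebpa, Cebpe, Spi1, Klf4, Gfi1 and Irf8 had means below the median probe set, Gfi1 and Irf8 only just. Egr1, Egr2 and Id2 lay above it. Cebpa ranged from 5.92 to 6.34 over the 9 arrays, with log2 fold changes of 0.07 in ZEB C and 0.04 in ZEB D against SCR. Spi1, which encodes PU.1, ranged from 5.00 to 5.72, with 0.14 in ZEB C and 0.21 in ZEB D. Cebpe and Klf4 had log2 fold changes within 0.10 of 0 with both hairpins. Gfi1, a repressor that restrains the monocyte programme, had log2 fold changes of -0.17 ± 0.21 (SE) in ZEB C and -0.41 ± 0.21 in ZEB D (limma adjusted p of 0.963 and 0.431). Irf8 read 6.98, 7.04 and 7.40 in ZEB C, 7.11, 6.92 and 6.83 in ZEB D, and 6.91, 6.89 and 6.92 in SCR. Its ZEB C arrays all lay above SCR by a small margin (0.23 ± 0.16; limma adjusted p = 0.831).

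Egr1, an immediate-early zinc-finger factor, separated the hairpins from each other but not from SCR. Its log2 signal was 8.34, 7.07 and 8.91 in ZEB D, against 11.12, 9.55 and 9.28 in ZEB C, with 9.63, 7.58 and 8.80 in SCR. Every ZEB D array lay below every ZEB C array, with a log2 fold change of -1.88 ± 0.66 (SE; limma adjusted p = 0.308) that did not pass. Against SCR the values were 1.31 ± 0.66 in ZEB C and -0.56 ± 0.66 in ZEB D (limma adjusted p of 0.672 and 0.753). Single arrays moved these values: ZEB C gave 0.74 without ZEB C replicate 10 and 0.77 without SCR replicate 8, and ZEB D gave -0.05 without ZEB D replicate 14, -0.08 without SCR replicate 7, -0.97 without ZEB D replicate 15 and -1.11 without SCR replicate 8. Egr2, its relative, read 10.59, 9.46 and 9.66 in ZEB C, 10.22, 9.36 and 10.56 in ZEB D, and 10.41, 10.04 and 10.36 in SCR, with all groups overlapping. In ZEB C both Egr genes were highest on array 10.

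Id2, an inhibitor of E-protein transcription factors, is described here although its groups touched, a choice made after its values were seen. It read 9.88, 8.25 and 11.76 in ZEB C, 7.80, 7.80 and 8.69 in ZEB D, and 7.38, 8.30 and 7.23 in SCR. ZEB C spread over 3.51 log2 units, and its lowest array fell just below the highest SCR array. The log2 fold change in ZEB C against SCR was 2.33 ± 0.74 (SE; limma adjusted p = 0.291), and in ZEB D it was 0.46 ± 0.74 (limma adjusted p = 0.823). Without ZEB C replicate 12 the ZEB C value was 1.43 (limma adjusted p = 0.448). ZEB C 12, with the highest Id2 signal, also had the highest Ncf4 and the lowest Lgmn signal of the ZEB C arrays and the highest principal component score. The 40 nearest neighbours of Id2 on chromosome 12 had a median of -0.40 in ZEB C and -0.03 in ZEB D.

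**Figure D3:**
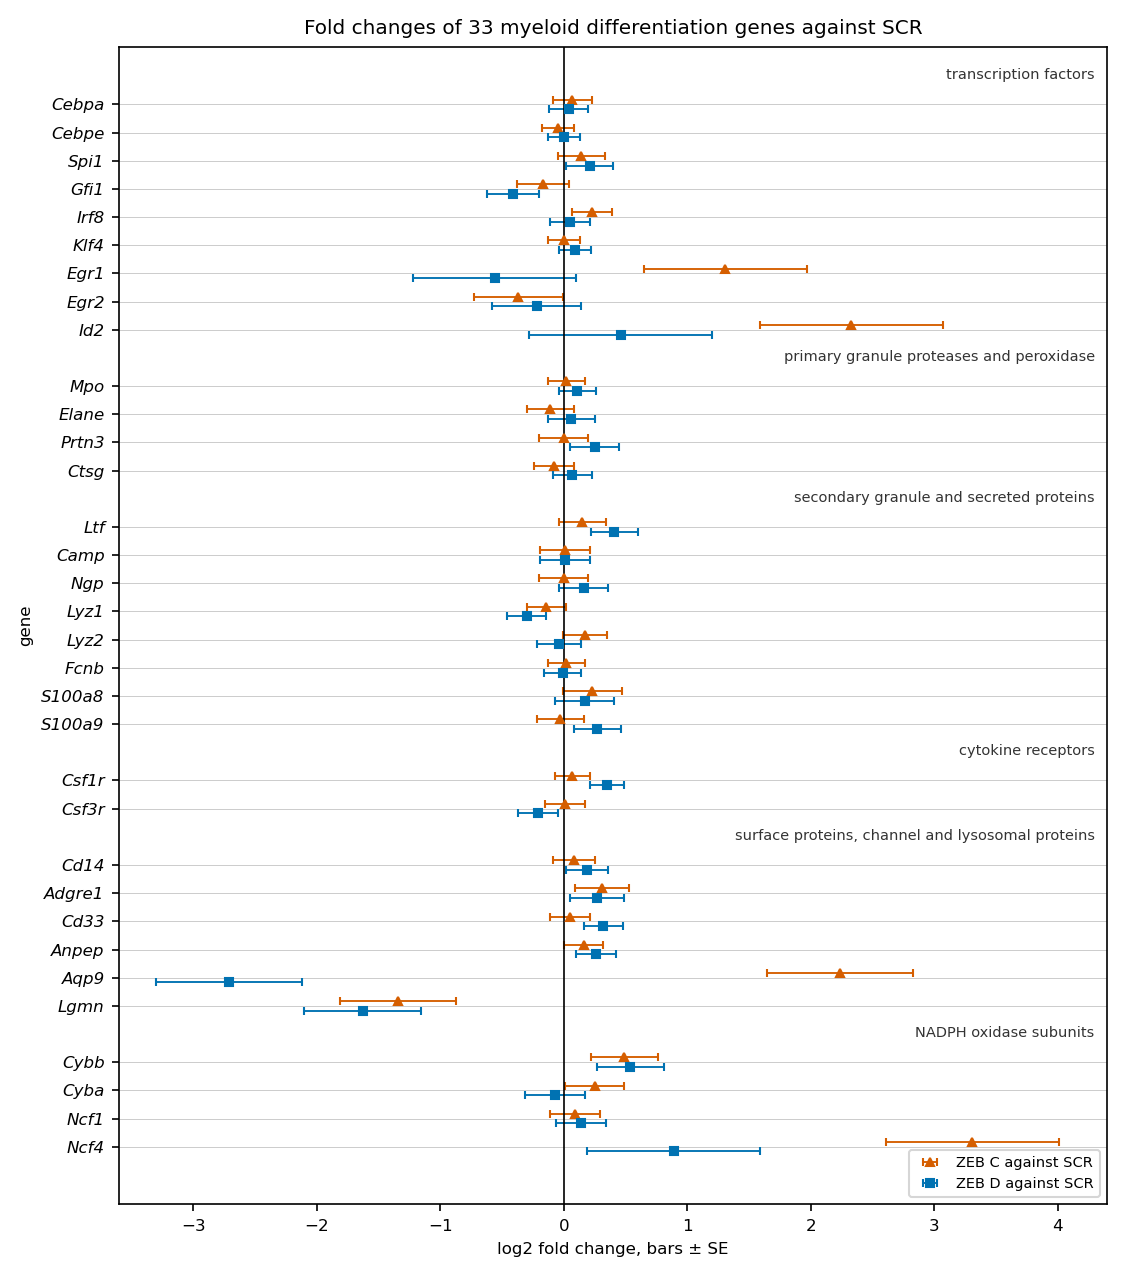
Log2 fold change against SCR (x axis, bars ± SE) of the 33 measured genes in ZEB C (triangles) and ZEB D (squares), grouped by role. Values for 28 genes (84.8%) lie within 0.5 of 0 in each comparison. Of all probe sets, 87.9% do so in ZEB C and 82.2% in ZEB D. Aqp9 has opposite signs, 2.24 in ZEB C and -2.71 in ZEB D.

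The primary granule genes had similar signals in all groups. Mpo, myeloperoxidase, read 7.74, 7.71 and 7.45 in ZEB C, 7.79, 7.74 and 7.64 in ZEB D, and 7.75, 7.65 and 7.43 in SCR, with log2 fold changes of 0.02 ± 0.15 (SE) and 0.11 ± 0.15 against SCR. Prtn3, proteinase 3, read 5.88, 5.83 and 6.20 in ZEB C, 5.85, 6.49 and 6.33 in ZEB D, and 6.08, 6.0 and 5.84 in SCR. These arrays overlapped in every comparison. Elane, neutrophil elastase, and Ctsg, cathepsin G, had log2 fold changes between -0.11 and 0.07 with both hairpins. Over the 4 genes the array values ran from 4.58 to 7.79. Of the 4, 0 were called in any comparison, where 0.843% to 0.945% of all probe sets were.

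Secondary granule and secreted proteins also stayed low. S100a9, a subunit of calprotectin, read 6.59, 6.51 and 6.26 in ZEB C, 6.52, 6.74 and 6.99 in ZEB D, and 6.28, 6.43 and 6.74 in SCR. Lyz2, lysozyme of macrophages, read 6.70, 6.84 and 6.74 in ZEB C, 6.17, 6.73 and 6.75 in ZEB D, and 6.72, 6.48 and 6.58 in SCR. Both genes overlapped between all groups. The 8 genes of this role, with Ltf (lactoferrin), Camp (cathelicidin), Ngp, Fcnb (a ficolin), Lyz1 and S100a8 (the partner of S100a9), ranged from 4.29 to 6.99 on all arrays. Their log2 fold changes ran from -0.14 to 0.23 in ZEB C and from -0.30 to 0.41 in ZEB D against SCR. All ZEB D arrays of Lyz1 lay below all SCR arrays (-0.30 ± 0.16, SE; limma adjusted p = 0.456). Lyz1 and Lyz2 are close paralogs, so their probe sets may share signal.

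The receptors and surface markers of mature myeloid cells gave small differences. Csf1r, the receptor for macrophage colony-stimulating factor, read 5.37, 5.40 and 5.15 in ZEB C, 5.41, 5.71 and 5.63 in ZEB D, and 5.21, 5.22 and 5.28 in SCR. Its ZEB D arrays lay above all ZEB C and SCR arrays at a low signal, with a log2 fold change of 0.35 ± 0.14 (SE) against SCR (limma adjusted p = 0.338). Csf3r, the receptor for granulocyte colony-stimulating factor, read 6.25, 6.30 and 5.99 in ZEB C, 6.18, 5.85 and 5.85 in ZEB D, and 6.21, 6.28 and 6.02 in SCR. Cd14 (a co-receptor for lipopolysaccharide), Adgre1 (F4/80, a macrophage marker), Cd33 (a sialic acid-binding lectin) and Anpep (CD13, an aminopeptidase) had log2 fold changes of 0.05 to 0.31 in ZEB C and 0.19 to 0.32 in ZEB D. None of these 4 was called in any comparison, where 0.843% to 0.945% of all probe sets were. All ZEB D arrays of Anpep lay above all SCR arrays at a low signal (0.26 ± 0.16, SE; limma adjusted p = 0.505).

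The widest spread between arrays of a group was in genes already described. The within-group SD of the 33 genes had a median of 0.22 log2 units, beside 0.26 for all probe sets, and 11 genes lay above 0.26. Id2 (1.11), Ncf4 (1.04), Egr1 (0.99), Aqp9 (0.87) and Lgmn (0.69) had the largest SDs, each wider than in 94.3% or more of all probe sets.

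Further myeloid genes were counted on 6 lists with 128 genes measured of 139. In ZEB C against SCR 2 rose and 1 fell, where 0.945% of all probe sets were called. In ZEB D against SCR 1 rose and 1 fell (0.843% of all called), and in ZEB D against ZEB C 2 were higher and 1 lower (0.848% of all called). Fcgr3, an Fc receptor for IgG, read 7.80, 7.87 and 7.66 in ZEB C, 10.93, 10.99 and 11.37 in ZEB D, and 12.19, 11.75 and 11.68 in SCR. In ZEB C Fcgr3 fell, with a log2 fold change of -4.1 ± 0.19 (SE; limma adjusted p = 5.62e-05), and it was higher in ZEB D than in ZEB C by 3.32 ± 0.19 (limma adjusted p = 0.000399), calls that held whichever array was left out. It was the sole called gene of 39 measured receptors and surface proteins, whose medians were 0.03 in ZEB C and 0.06 in ZEB D.

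Of 22 measured further granule genes, 2 rose in ZEB C (0.945% of all probe sets called) and 1 in ZEB D (0.843% of all called), with medians of 0.23 in both. The list was chosen with earlier results of these data known, so its count beside the share of all probe sets is no test. Nkg7, a membrane protein of cytotoxic granules that also stands on the NK cell marker list, read 9.11, 9.79 and 12.65 in ZEB C, 4.63, 6.12 and 4.81 in ZEB D, and 4.49, 4.32 and 4.94 in SCR. Nkg7 rose in ZEB C by 5.93 ± 0.80 (SE; limma adjusted p = 0.0109), a call lost without SCR replicate 8 (0.0503) or 9 (0.0577). In ZEB D against ZEB C its log2 fold change was -5.33 (limma adjusted p = 0.0189), a call lost without ZEB D replicate 13 (0.0528) or 15 (0.102) and with only the 6 compared arrays (0.0837). Cst7, cystatin F, an inhibitor of lysosomal cysteine proteases, read 12.66, 12.91 and 14.21 in ZEB C, 10.69, 12.39 and 12.04 in ZEB D, and 10.06, 10.86 and 9.67 in SCR. Cst7 rose in ZEB C by 3.06 ± 0.53 (SE; limma adjusted p = 0.0359), and the call was lost without SCR replicate 7, 8 or 9, ZEB C replicate 10, 11 or 12 or ZEB D replicate 15 (0.0569 to 0.165). ZEB C 12 was the highest array for Nkg7 and Cst7, as for Ncf4 and Id2.

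Prss57, a serine protease of neutrophil azurophil granules, lies on the same stretch of chromosome 10 as Prtn3 and Elane, which were not called. It read 9.38, 10.12 and 9.98 in ZEB D, against 7.79, 8.80 and 8.00 in SCR, with 7.73, 7.95 and 7.55 in ZEB C. The ZEB D arrays lay above all others. Prss57 rose in ZEB D against SCR by 1.63 ± 0.29 (SE; limma adjusted p = 0.0419) and was higher in ZEB D than in ZEB C by 2.08 ± 0.29 (limma adjusted p = 0.0141). The call against SCR was lost without SCR replicate 7 or 9, ZEB C replicate 10 or 11 or ZEB D replicate 14 or 15 (limma adjusted p from 0.0707 to 0.211), with array medians subtracted (0.0551) and with only the 6 compared arrays (0.0984), and the call between hairpins without ZEB C replicate 10 or ZEB D replicate 14 or 15 (0.0505 to 0.084).

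Ctsz, cathepsin Z, was the called gene among 19 measured further lysosomal and macrophage genes, where 0.843% to 0.945% of all probe sets were called. The medians of these 19 genes were 0.28 in ZEB C and -0.01 in ZEB D. Ctsz read 11.49, 11.93 and 11.50 in ZEB D, against 12.89, 12.67 and 13.51 in SCR, with 11.90, 11.43 and 11.87 in ZEB C. Ctsz fell by 1.38 ± 0.25 in ZEB D (SE; limma adjusted p = 0.0428) and had a log2 fold change of -1.29 ± 0.25 in ZEB C (limma adjusted p = 0.0513). The ZEB D call was lost without each array in turn other than ZEB C replicate 12 (limma adjusted p up to 0.186). It was also lost when quantile normalized again (0.0569), with the trended variance prior (0.0687) and with only the 6 compared arrays (0.0873). The 40 nearest neighbours of Ctsz on chromosome 2 had medians of -0.85 in ZEB C and -0.64 in ZEB D, and their part in the Ctsz difference was not tested.

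**Figure D4:**
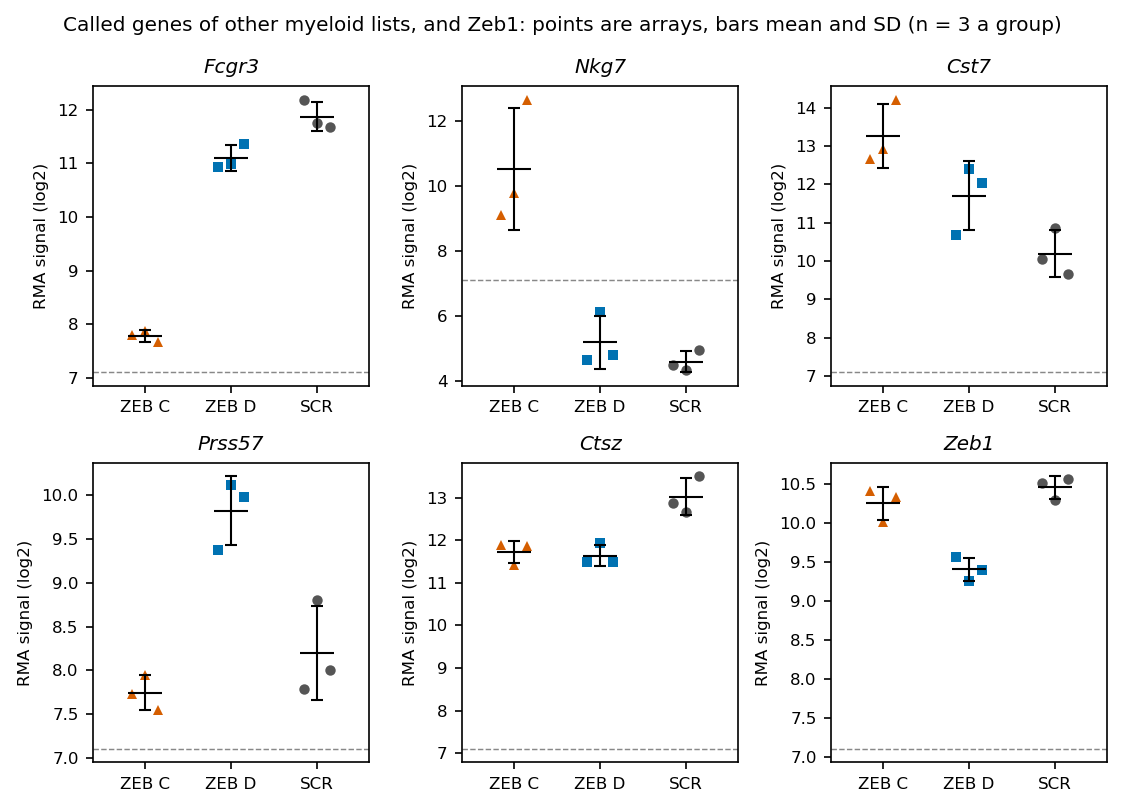
RMA signal (log2, y axis) of the called genes of the further myeloid lists (Fcgr3, Nkg7, Cst7, Prss57 and Ctsz) and of Zeb1 in ZEB C, ZEB D and SCR, with a point per array and black bars for the mean and SD (n = 3). Fcgr3 is low and Nkg7 high on all 3 ZEB C arrays, Prss57 is high in ZEB D, and Ctsz is lower with both hairpins.

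The further lists of transcription factors and S100 proteins held no called gene. Of all probe sets, 0.945% were called in ZEB C against SCR, 0.843% in ZEB D against SCR and 0.848% in ZEB D against ZEB C. Of 37 transcription factors beyond those of the main list, such as Cebpb, Runx1, Irf5 and Jun, 0 were called, with medians of 0.10 in ZEB C and 0.03 in ZEB D. Of 6 further S100 genes, 0 were called, with medians of 0.79 in ZEB C and 0.10 in ZEB D. Their mean over the list was 10.55 to 13.07 on ZEB C arrays, 10.13 to 10.96 on ZEB D arrays and 10.09 to 10.94 on SCR arrays.

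Markers of cell types were read to place these cells. By the mean over all 9 arrays, 0 of 6 neutrophil and 0 of 7 monocyte and macrophage markers lay above the median probe set, and 1 of 7 myeloid progenitor markers, Mpo, did. Ccr2, on the monocyte list, was an exception within SCR, with a mean of 6.04 in ZEB C, 4.91 in ZEB D and 8.12 in SCR. Of 6 T cell markers 4 lay above it, and Cd3g read between 15.38 and 15.71 on all arrays and Cd3e between 13.41 and 15.32. The mean over the T cell list was 10.29 to 10.64 in ZEB C, 10.30 to 10.52 in ZEB D and 10.42 to 10.50 in SCR, and 0 of 6 were called. The mean over 7 NK cell markers was 6.41 to 7.02 in ZEB C, 5.40 to 5.80 in ZEB D and 5.13 to 5.57 in SCR. By the mean over all 9 arrays 1 of these 7, Klrk1, lay above the median probe set. Their median log2 fold change in ZEB C against SCR was 0.15. Ncr1, Eomes, Tbx21 and Prf1, at low signals, had values of 0.08, -0.22, 0.15 and -0.10, and Klrb1c had 1.51 (limma adjusted p = 0.249). On that list Nkg7 and Klrk1 (1.98 ± 0.36, SE; limma adjusted p = 0.0432) rose in ZEB C. The Klrk1 call was not checked with arrays left out. Ncf4, Id2 and Aqp9 had higher means in ZEB C than in SCR but were not called (limma adjusted p of 0.0754, 0.291 and 0.166). Any link between these genes was not tested. Among megakaryocyte and mast cell markers 3 of 6 lay above the median, Cpa3 (a mast cell carboxypeptidase) reading between 14.98 and 15.66, and 0 were called. On the B cell, dendritic cell, erythroid and epithelial and stromal lists 1 of 5, 2 of 7, 1 of 3 and 1 of 6 markers lay above the median, with 0 called. Beside these counts of called markers, 0.843% to 0.945% of all probe sets were called in each comparison.

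Promoter windows are shown for Aqp9, Id2 and Lgmn, described above with large differences between arrays, and for Cyba, described with small ones. Each runs from 250 bases before to 50 after an annotated start (RefSeq, GRCm38.p6), 5′ to 3′ on the gene's strand. Zeb1 binds E-boxes, so CAGGTG and CAGGTA were searched on both strands, and matches stand in capitals. The Aqp9 window, 1 of 2 in the table, at chr9:71163240-71163539 on the minus strand, and the Id2 window, at chr12:25096043-25096342 on the minus strand, held no match. The Lgmn window, 1 of 2 in the table, at chr12:102439679-102439978 on the minus strand, held CAGGTA, its first base 39 bases before the start. The other Lgmn window, not shown, held no match. The Cyba window, at chr8:122432891-122433190 on the minus strand, held CAGGTG, its first base 200 bases before the start.
Aqp9: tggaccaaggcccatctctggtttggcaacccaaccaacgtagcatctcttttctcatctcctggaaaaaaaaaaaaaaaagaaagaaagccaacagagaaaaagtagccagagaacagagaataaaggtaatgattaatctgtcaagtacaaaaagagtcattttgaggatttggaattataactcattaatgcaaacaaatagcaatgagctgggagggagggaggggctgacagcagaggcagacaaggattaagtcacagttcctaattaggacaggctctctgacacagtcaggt
Id2: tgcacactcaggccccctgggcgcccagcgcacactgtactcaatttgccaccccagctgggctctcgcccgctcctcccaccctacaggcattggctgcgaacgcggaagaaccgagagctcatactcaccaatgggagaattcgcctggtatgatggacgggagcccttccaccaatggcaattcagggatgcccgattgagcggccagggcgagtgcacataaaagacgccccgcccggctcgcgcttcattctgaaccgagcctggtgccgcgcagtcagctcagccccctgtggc
Lgmn: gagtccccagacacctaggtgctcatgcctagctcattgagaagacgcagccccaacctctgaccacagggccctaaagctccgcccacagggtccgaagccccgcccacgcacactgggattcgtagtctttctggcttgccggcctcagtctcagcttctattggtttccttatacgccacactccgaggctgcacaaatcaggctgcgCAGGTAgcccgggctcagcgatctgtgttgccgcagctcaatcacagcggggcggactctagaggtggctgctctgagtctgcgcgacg
Cyba: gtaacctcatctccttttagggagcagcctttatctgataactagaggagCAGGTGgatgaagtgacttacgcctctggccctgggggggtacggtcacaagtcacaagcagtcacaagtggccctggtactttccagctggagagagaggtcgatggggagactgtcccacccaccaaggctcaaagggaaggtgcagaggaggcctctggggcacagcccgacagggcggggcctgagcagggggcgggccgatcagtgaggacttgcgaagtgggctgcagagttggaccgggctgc

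Across the myeloid differentiation genes, 26 of the 33 matched the promoter table, with 34 windows. CAGGTG or its reverse complement stood in a window of 6 genes (Gfi1, Irf8, Ctsg, Ltf, S100a9 and Cyba), and 20.2% of all 32851 windows hold it. CAGGTA or its reverse complement stood in a window of 2 genes (S100a9 and Lgmn), and 12.0% of all windows hold it. Some genes have several windows, so these counts of genes and shares of windows are in unlike units and are not compared. None of the genes with a match was called in any comparison, where 0.843% to 0.945% of all probe sets were. A match is a run of letters and not a shown binding site.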

How the data were processed

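Gene expression was measured with 1-colour arrays. Per the submitters' processing notes the authors used RMA and the Transcriptome Analysis Console; their build: not given in the sources used here. The values the authors deposited, an unlabelled unit, were linear RMA signals written without their decimal point. Each of 199854 values was returned to log2 by placing the point where log2 is a multiple of 0.01 (tolerance 1e-06 steps, nearest rejected place 0.036 steps). Array medians were 6.97 to 7.16. Of 22206 probe sets, 19572 had 1 symbol (updated by gene ID through RefSeq) and 2634 had none and stayed out of the tests. All 9 arrays entered a limma 3.58.1 fit (R 4.3.3) with a mean per group, empirical Bayes moderation and Benjamini-Hochberg adjustment over all named probe sets. The fit was tested on simulated data with independent noise, which lacked the shared axis of deviations between arrays described above. The slide and scan batch were not analysed here. Precision is limited by having 3 arrays a group. The genes, lists and tests were chosen with earlier results of these data known. Full values were given for members called, or separated by a log2 fold change of at least 1, in any comparison, and for at least 2 members of each role; further lists gave up to 4 called genes per direction. Neighbours are the nearest genes, equally from each side, with a mean above the median; their order is that of RefSeq (GRCm38.p6).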

Additional observations from a re-analysis of the deposited data

Results flagged for a closer look

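Aqp9, Nkg7, Prss57 and Fcgr3 stand here because their change against SCR differed between the hairpins by the direct limma test of ZEB D against ZEB C. The log2 differences, ZEB D minus ZEB C, were -4.95 for Aqp9 (limma adjusted p = 0.00729), -5.33 for Nkg7 (0.0189), 2.08 for Prss57 (0.0141) and 3.32 for Fcgr3 (0.000399). For Aqp9 every ZEB C array lay above and every ZEB D array below all SCR arrays.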

How the results depend on the processing

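The counts of called probe sets and of called members (185 and 0 in ZEB C against SCR, 165 and 0 in ZEB D against SCR, 166 and 1 in ZEB D against ZEB C) moved as follows. With array weights they were 572 and 1 (Ncf4), 1076 and 2 (Aqp9 and Lgmn), and 833 and 1. With the leading principal component of deviations from group means as a covariate, a term taken from the same arrays that leaves the fold changes as they were and removes residual spread, so that its gained calls are no support, they were 900 and 3 (Aqp9, Id2 and Ncf4), 1813 and 2 (Aqp9 and Lgmn), and 1377 and 2 (Aqp9 and Ncf4). With the 6 compared arrays alone they were 125 and 1 (Ncf4), 68 and 0, and 81 and 1. At an adjusted p under 0.10, 1 member was called in each comparison (Ncf4, Aqp9 and Aqp9), where 1.61%, 1.53% and 1.6% of all probe sets were. Leaving out each array gave 43 to 214 probe sets and 0 to 1 members in ZEB C against SCR, 14 to 213 and 0 to 1 in ZEB D against SCR, and 49 to 162 and 1 to 2 in ZEB D against ZEB C. The lowest counts came without SCR replicate 9 in both comparisons with SCR and without ZEB D replicate 15 between hairpins. The Aqp9 difference between hairpins was called under each of these settings, with limma adjusted p up to 0.0489. For Lgmn in ZEB D against ZEB C, uncalled, the value ran from -0.89 without ZEB C replicate 12 to 0.14, with the sign turned, without replicate 11. The cause of these moves was not tested. Leaving out an array changes both the number of arrays and which arrays remain. Quantile normalizing again, subtracting array medians, the trended prior, 1 probe set per gene and the filter on low signals moved no member's call. No paired analysis was possible because the groups share no replicate numbers.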

Other observations

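Ccr2, a chemokine receptor of monocytes on the list of further receptors, was picked out after its values were seen. It read 8.14, 5.66 and 4.33 in ZEB C, 4.90, 4.85 and 4.99 in ZEB D, and 8.47, 7.38 and 8.52 in SCR. Every ZEB D array lay below every SCR array, while ZEB C 10 stayed within the SCR range and ZEB C 12 was the lowest of all. The log2 fold changes against SCR were -2.08 ± 0.79 (SE) in ZEB C and -3.21 ± 0.79 in ZEB D, and neither passed the test (limma adjusted p of 0.431 and 0.122).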
